A study of Homo sapiens with 179 samples.

Results

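The libraries described here are the 96 LM-Seq libraries whose 5-digit library number occurs in both Lane 1 and Lane 2 of the series. There are 48 such numbers, from that of Lane1_38829_0047 to that of Lane1_38876_0094, each with 1 library in each lane, out of 179 libraries in all. A number is named here by the title of its Lane 1 library, and 3 that recur are called P (Lane1_38859_0077), L (Lane1_38846_0064) and Q (Lane1_38861_0079). LM-Seq is an RNA-seq protocol in which polyadenylated RNA is captured on oligo-dT beads, broken by heat and copied from random hexamer primers. All libraries came from H1, a line of human embryonic stem cells, grown without further treatment in E8 medium on Matrigel, and no label sets 1 number apart from another by passage, dose or culture. Lane 1 was shared by 95 samples and Lane 2 by 48. The other 47 Lane 1 libraries, the 24 libraries of Lane 3 and the 6 of Lane 4, all from the same line and protocol, served as further readings. The 6 TruSeq libraries, from the groups H1p16 and H1p43, were not used. Whether a number marks 1 library loaded on both lanes is not given in the labels.

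Human embryonic stem cells are held in an undifferentiated state by transcription factors such as POU5F1, NANOG and SOX2, and they carry high levels of transcripts for RNA processing, ribosome assembly and cell division. A transcript's share of the reads also depends on how its sequence passes through fragmentation, priming and amplification, so base composition and length of transcripts are usual covariates of differences between RNA-seq libraries. The 14 markers chosen for embryonic stem cells all exceeded a mean of 10 TPM (transcript share scaled to a fixed total per library), and together they made up 14090 to 15090 TPM in the 96 libraries. The 6 trophoblast markers summed to 3.66 to 25.6 TPM and the 8 mesendoderm markers to 70.2 to 104.2 TPM, each with 1 gene above 10 TPM (KRT7 and KDR). The 10 fibroblast or stroma markers summed to 447 to 573 TPM, with LUM and DCN at 0 in all 96 libraries. The highest of them was THY1, with a mean of 250.9 TPM. The 7 neuroectoderm markers summed to 167.2 to 369.0 TPM, most of it from NES, an intermediate filament gene that varied between numbers. The part of such cells in the results below was not tested. In bulk libraries, fewer cells of a type and less RNA per cell cannot be told apart.

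Deviation here means the difference between a gene's log2(TPM + 1) in a library and the mean of its lane over the 48 numbers. It was computed for the 8290 of 19084 genes with a mean of 10 TPM or more, the lowest of them at 10.0 TPM and the highest gene left out at 9.998 TPM. Library totals were 1040667 to 1419596 expected counts in Lane 1 and 2005728 to 2739067 in Lane 2. Libraries with the same number differed little more than by counting: the chi-square per degree of freedom, over genes whose summed count in the pair reached 20, was 1.04 to 1.13, where counting noise alone gives about 1. Libraries with different numbers gave 1.41 to 9.89 (median 1.83). Each number was counted as 1 sample read in both lanes, and the p-values below set differences between numbers against the disagreement of those readings only. They say nothing of separate cultures.

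Most genes differed between numbers by more than the lanes disagreed, and the amounts were small. Of 8211 genes tested at that level, 7646 passed edgeR's quasi-likelihood F test over the 48 numbers (93.1%, Benjamini-Hochberg adjusted p below 0.05), against 91.3% of all 10120 genes tested. The repeatable standard deviation (SD), the square root of the covariance of the Lane 1 and Lane 2 deviations, had a median of 0.134 on the log2 scale, and 1259 of the called genes reached 0.2. Over the 48 numbers the correlation of a gene's deviations between lanes had a median of 0.423 over genes and a range of -0.18 to 0.997. The median passed a permutation of the numbers (p = 1e-05, two-sided, the smallest that 100000 resamples can give). It was 0.387 without the numbers P and L, which stand apart below. Lane 1 against Lane 3, over 24 numbers, gave 0.481.

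The repeat between lanes rose with expression while the repeatable SD fell. Genes of 10 to 20 TPM had a median correlation of 0.353 and a median repeatable SD of 0.178. At 100 to 300 TPM these medians were 0.548 and 0.102, and at 1000 TPM or more, 0.852 and 0.091. In the same step the spread within Lane 1 dropped from a median SD of 0.349 to 0.101. At low levels most of the spread in a lane was not shared with the other lane, and at high levels most of it was.

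**Figure D1:**
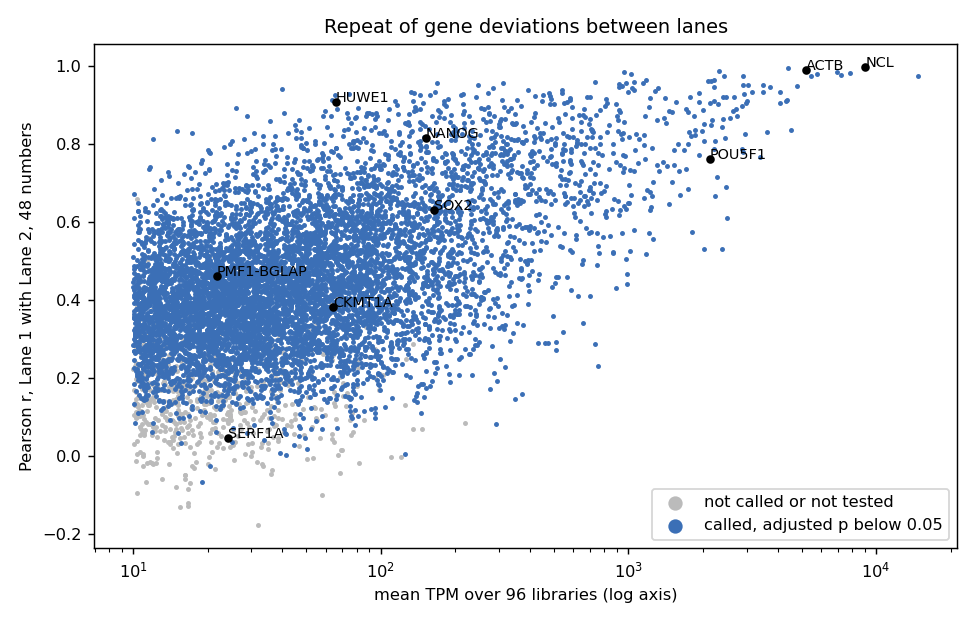
Pearson correlation of Lane 1 with Lane 2 deviations over 48 numbers (y axis) against mean TPM (log x axis) for 8290 genes, blue where the edgeR test over numbers was passed. NCL and ACTB lie near 1 at the right, and SERF1A lies near 0 at 24.1 TPM.

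The closest repeat was that of NCL, which encodes nucleolin, an abundant nucleolar RNA-binding protein. NCL ran from 6887 to 15055 TPM in Lane 1 (median 8943) and from 6961 to 14917 TPM in Lane 2 (median 8886), lowest in number L and highest in number P in both lanes. Its correlation between lanes was 0.997 and its repeatable SD 0.186 (edgeR adjusted p = 6.9e-128). ACTB, the cytoplasmic beta-actin gene, went the other way, from 3269 TPM in P to 7459 TPM in L in Lane 1 (median 5263) and from 3258 to 7122 TPM in Lane 2, with a correlation of 0.988. EIF3A (a subunit of the initiation factor eIF3, mean 960 TPM), HNRNPA2B1 and HNRNPA1 (hnRNP proteins of pre-mRNA packaging and splicing), NASP (a histone chaperone), PABPC1 (the poly(A)-binding protein), PTMA (prothymosin alpha) and EEF1A1 (the elongation factor that brings tRNA to the ribosome) also exceeded a correlation of 0.97. These genes, chosen after their values were seen, had a mean of 960 TPM or more, and the numbers that were high in one lane were high in the other.

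The pluripotency factors differed in how much they varied. POU5F1 was the steadiest of the 3, from 1925 to 2365 TPM in Lane 1 and from 1952 to 2354 TPM in Lane 2, with a repeatable SD of 0.06 and a correlation of 0.760. SOX2 ran from 146.2 to 200.8 TPM in Lane 1 and from 118.1 to 196.9 TPM in Lane 2, with a repeatable SD of 0.10. NANOG ran from 82.9 to 200.2 TPM in Lane 1 (median 153.3) and from 89.1 to 179.97 TPM in Lane 2, with a repeatable SD of 0.18 and a correlation of 0.815. The lowest NANOG value belonged to P in both lanes. POU5F1 and NANOG have processed copies elsewhere in the genome, so the division of their reads is uncertain.

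**Figure D2:**
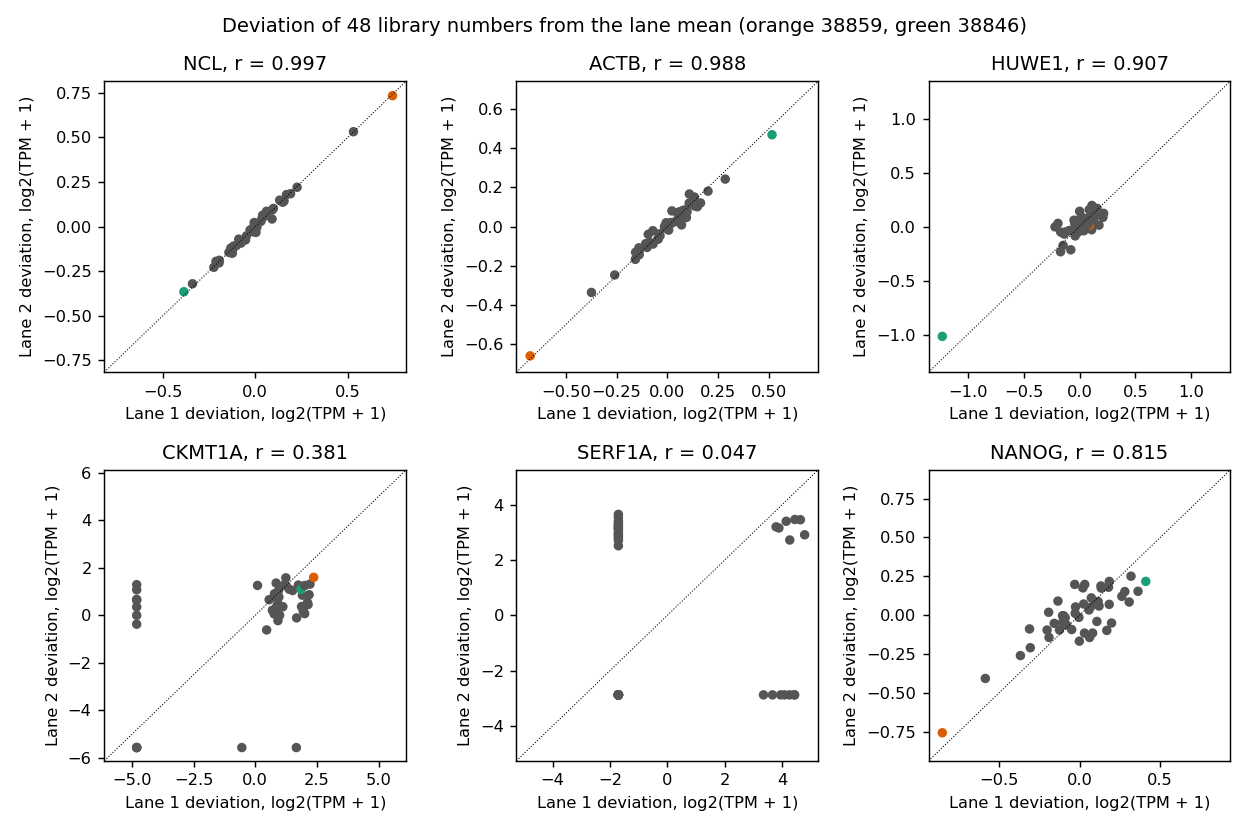
Deviations of 48 library numbers in Lane 1 (x axis) and Lane 2 (y axis), log2(TPM + 1), for 6 genes, with number P in orange and L in green and the diagonal dotted. NCL and ACTB follow the diagonal with the coloured numbers at opposite ends, HUWE1 is set apart by L alone, and CKMT1A and SERF1A fall into blocks at 0 TPM and above.

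Genes with the largest repeatable SD were of another kind. The 12 called genes at the top, with a repeatable SD of 0.69 to 1.69, were read-through models, genes inside or opposite other genes, and near-identical copies: PMF1-BGLAP, CKMT1A, CKMT1B, PMCH, NEDD8-MDP1, NARR, PHOSPHO2-KLHL23, CBWD5, POLR2J3, CBWD6, SMN2 and FAM72B. All 12 were listed at 0 TPM in at least 1 library of each lane, and the reads behind them can be divided in several ways, so their values are uncertain. PMF1-BGLAP was listed at 0 in 19 of the 48 Lane 1 libraries and 16 of the Lane 2 libraries, with medians of 11.5 and 10.04 TPM and highest values of 113.2 and 117.5 TPM. Its correlation between lanes was 0.460, where NCL had 0.997.

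CKMT1A and CKMT1B are near-identical genes for a mitochondrial creatine kinase. CKMT1A ranged from 0 to 144.2 TPM in Lane 1 and up to 142.4 TPM in Lane 2, with an SD of 2.56 and 1.99 on the log2 scale, and CKMT1B from 0 to 135.1 and from 0 to 123.6 TPM. Number P had 144.2 and 142.4 TPM of CKMT1A in Lanes 1 and 2 and 0 TPM in Lane 3, where CKMT1B, listed at 0 in both other lanes, had 134.5 TPM. The sum of both copies, formed after these values were seen, ranged only from 72.03 to 144.2 TPM in Lane 1, with an SD of 0.226. For the copies SERF1A and SERF1B the sum had an SD of 0.322 in Lane 1, where SERF1A alone had 2.70 and was listed at 0 in 34 of 48 libraries. In both families the sum of the copies varied less than either copy.

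Large spread with a low correlation between lanes was found in the same class. Among genes with a correlation below 0.2 between lanes, the 8 with the widest spread were SERF1A, SERF1B, CBWD6, CBWD5, CCZ1B, RGPD5, WFDC2 and SPIN2A, with correlations of -0.07 for RGPD5 to 0.185 for SPIN2A. All but WFDC2, which encodes a secreted protease inhibitor-like protein, have near-identical copies. WFDC2 averaged 11.9 TPM and lay below the count filter, so it was not tested. The other 7 all passed edgeR's test of differences between numbers (adjusted p = 8.9e-05 for CCZ1B to 0.026 for RGPD5), and between Lanes 1 and 3 SPIN2A had a correlation of 0.539 and RGPD5 of 0.361. CBWD5 and CBWD6 appear in both lists: a repeatable SD above 0.8 went with correlations of 0.158 and 0.114.

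Single deviations were counted next. A deviation was called where edgeR's test of 1 number against the mean of the other 47 gave an adjusted p below 0.05 over all genes and numbers, and where it had the same sign and at least 0.5 on the log2(TPM + 1) scale in each lane. By the adjusted p alone, 32503 of 485760 combinations of gene and number passed (6.69%). With sign and size in both lanes 3268 of 394128 did (0.829%), 1288 higher (0.327%) and 1980 lower (0.502%), in 2290 genes, of which 1659 had a called deviation in 1 number only. The share of higher calls, 39.4% here, was 48.6% on log2 CPM (1531 higher and 1619 lower) and 24.1% with limma (749 higher and 2353 lower). The counts per number ran from 23 to 674 with a median of 42.5. Number L had 674 (8.21% of its genes) and P had 517 (6.3%), against 110 in Q, the next, and 0.55% over the other 46 numbers. Libraries thinned to the lowest total left 1664 called deviations, and DESeq2 called 1899.

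**Figure D3:**
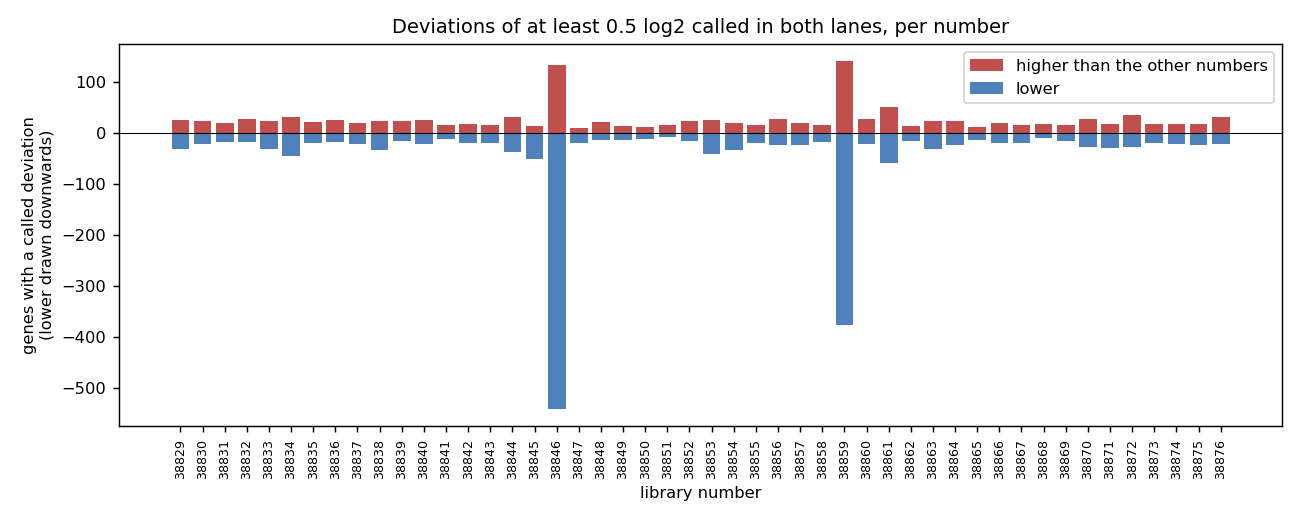
Number of genes with a called deviation for each of the 48 library numbers (x axis), those higher than in the other numbers drawn upwards and those lower downwards. Numbers L and P have 674 and 517 calls, and the 46 others 23 to 110 each.

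Deviations that 1 lane shows alone need not repeat. Of 3876 deviations of at least 1 in Lane 1, 1041 (26.9%, 95% exact binomial interval 25.5 to 28.3%) had the same sign and at least 0.5 of that size in Lane 2. The intervals cover counting of deviations only. The share was 23.4% without P and L, 57.6% within L and 48.7% within P. Chosen in Lane 2, the deeper lane, and read in Lane 1, 46.97% repeated. Among the 1748 genes with 100 TPM or more such deviations were rare: 35 in all, of which 23 repeated, 17 of them in P and L. Called deviations were also read in Lanes 3 and 4, which played no part in the call but hold the same numbers. They are further readings of those numbers, so a shared sign is no support from separate samples. In Lane 3, 1548 of 1597 had the same sign (96.9%) and 977 (61.2%) at least 0.5 of the size. In Lane 4, with 6 numbers, 273 of 277 had the same sign, but only 40.4% at least 0.5 of the size. Deviations in Lanes 3 and 4 were taken from the mean of fewer numbers.

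Number L had lower values of long transcripts. Of the 18 measured genes of the large structural list (giant cytoskeletal, chromatin and ubiquitin-ligase genes), 17 had a called decrease and none an increase, against 6.58% of all genes called lower and 1.63% called higher in that number. Their median deviation was -0.77 in both lanes. HUWE1, a giant ubiquitin ligase, had 27.4 TPM in Lane 1 and 31.5 TPM in Lane 2, where the medians of all numbers were 67.02 and 65.7 TPM (adjusted p = 4.9e-32). UBR4, another ubiquitin ligase, had 10.7 and 13.03 TPM against medians of 25.8 and 25.4 TPM, and MDN1, a ribosome-assembly ATPase, 38.6 and 39.4 TPM against 74.5 and 75.5 TPM. In each of these genes L was the lowest of the 48 in both lanes. Without P and L the correlation of HUWE1 between lanes fell from 0.907 to 0.649.

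Genes of other functions were also lower in L. SRRM2, a large splicing cofactor, was at 69.3 and 68.3 TPM in L against medians of 159.4 and 160.8 TPM. MKI67, a marker of cycling cells, was at 30.2 and 29.5 TPM against 58.1 and 58.4 TPM, TET1, a 5-methylcytosine oxidase, at 12.8 and 15.6 TPM against 28.8 and 29.4 TPM, and FN1, the fibronectin gene, at 23.4 and 19.1 TPM against 43.6 and 45.9 TPM. All passed the test in edgeR. LAMA1 and COL4A5, chains of laminin and collagen IV, were also called lower. Thus 3 of 17 genes of the collagen and matrix list fell, 4 of 24 of the G2/M list, 5 of 24 of the actin list and 1 of 6 of the DNA methylation list. None was higher in any of them, against the 6.58% of all genes called lower. The lists are not separate from the large structural list, which shares CENPF with the G2/M list and MYH10 with the actin list. Of the 1653 longest genes 336 were called lower in L, and these lists were not compared with genes of like length. The list medians in L lay below those of all genes (-0.07 in Lane 1 and -0.08 in Lane 2) in Lane 2 only. They were -0.03 and -0.13 in the G2/M list and -0.03 and -0.105 in the actin list. On log2 CPM they were 0.08 and -0.02 in the G2/M list and 0.07 and 0.002 in the actin list.

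Sorted by transcript length, the 1654 shortest genes (177 to 1815 bases) had a median deviation of 0.12 in Lane 1 and 0.11 in Lane 2 in L, with 68 called increases and 19 decreases. The 1653 longest (5495 to 34526 bases) had medians of -0.30 and -0.29, with 5 increases and 336 decreases. The metallothionein and ribosomal protein lists lay on the high side. MT1H, a metal-binding metallothionein with close relatives that share its sequence, was at 103.1 and 92.8 TPM against medians of 45.2 and 45.7 TPM. It was 1 of 3 called increases among 7 metallothioneins. Others of the 7 did not repeat: MT1F deviated by 0.287 in Lane 1 and -0.883 in Lane 2, and MT1E by 0.788 and -0.205. The 82 cytosolic ribosomal protein genes had a median deviation of 0.15 and 0.16 in L, with no call in either direction, and the 76 mitochondrial ribosomal protein genes of 0.13 and 0.10, with 5 calls, all higher, against the 1.63% of all genes called higher in L.

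Number P had higher values of transcripts rich in purines (adenine and guanine) and lower values of those poor in them. NCL was at 15055 and 14917 TPM against medians of 8943 and 8886 TPM, and at 14795 TPM in Lane 3. HNRNPA2B1 was at 7500 and 7462 TPM against 4348 and 4324 TPM, HNRNPH3, a related splicing regulator, at 1763 and 1805 TPM against 993 and 999.9 TPM, and NES at 362 and 352 TPM against 207.3 and 207.4 TPM. TPM2, a tropomyosin, was at 917 and 882 TPM against 534 and 530 TPM. On the low side CD24, a surface glycoprotein of embryonic stem cells, was at 1573 and 1526 TPM against 2423 and 2435 TPM, and DPPA4, a nuclear protein of pluripotent cells, at 714 and 711 TPM against 1073 and 1039 TPM. NANOG was at 82.9 and 89.1 TPM against 153.3 and 152.7 TPM, and RPS28, a small ribosomal protein gene, at 393 and 517 TPM against 833 and 818 TPM. Each of these values was the highest or the lowest of the 48 numbers in its lane, and each deviation was called.

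Of 31 splicing factors of the SR and hnRNP families, 3 were called higher in P and 1 lower, of 82 ribosomal protein genes 5 lower, and of 23 pluripotency genes 3 lower, against 1.72% of all genes higher and 4.58% lower. The largest called differences again included genes with uncertain reads. PMF1-BGLAP was at 113.2 and 50.8 TPM, NARR at 99.7 and 94.07 TPM against medians of 32.8 and 36.96 TPM, and ARHGEF35, a near-identical copy of ARHGEF5, at 219 and 227 TPM against 61.6 and 61.3 TPM. FAM72A, 1 of several near-identical copies, was at 0 and 15.4 TPM against 43.8 and 42.5 TPM. TNNT2, a troponin gene whose transcript is 62.5% purine, was at 57.2 and 64.1 TPM against 30.2 and 28.2 TPM. Number Q was also high in purine-rich genes, with NCL at 13006 and 12967 TPM, TPM2 at 889 and 878 TPM and TNNT2 at 56.4 and 58.6 TPM.

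The largest called deviations also included less abundant genes. In L, DDI2, a protease-like ubiquitin receptor, was at 5.96 and 4.47 TPM against medians of 28.985 and 31.5 TPM, and ZNF8, a zinc finger gene, at 1.9 and 5.3 TPM against 18.6 and 18.9 TPM. PMCH, a neuropeptide gene that lies opposite another gene, was at 133.7 and 70.9 TPM there against 17.6 and 12.2 TPM. In P, ZDHHC12, a palmitoyltransferase, was at 1.85 and 4.65 TPM against 20.1 and 19.6 TPM, and CROT, a peroxisomal carnitine acyltransferase, at 2.58 and 0.32 TPM against 11.6 and 10.8 TPM. In Q, NOP10, a small protein of H/ACA ribonucleoproteins, was at 26.8 and 36.6 TPM against 71.9 and 67.8 TPM.

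In Lane1_38844_0062, with 68 calls, C19orf79 was at 63.9 and 81.4 TPM against medians of 198.5 and 195.6 TPM. METTL18, a histidine methyltransferase, was at 20.1 and 20.2 TPM there against 9.62 TPM in both lanes. In Lane1_38834_0052, with 76 calls, CYHR1 was at 25.95 and 26.5 TPM against 11.2 and 11.3 TPM, and RENBP, the renin-binding protein, at 3.07 and 3.14 TPM against 10.8 and 9.77 TPM. MRPS24, a mitochondrial ribosomal protein gene, was listed at 0 TPM in Lane 1 and at 13.6 TPM in Lane 2 in Lane1_38834_0052, so its size is uncertain. These deviations were close in both lanes for C19orf79, METTL18, CYHR1 and RENBP and unequal for MRPS24.

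The split of calls into higher and lower in L, P and Q depends on the scale. TPM sum to a fixed total, and the median of all genes in P lay at -0.10 in both lanes. On log2 CPM with TMM factors the median lay at 0.02 and 0.01, and 58% of the called deviations of P were higher, against 27.3% on the TPM scale. In L the share was 42% against 19.9%, and in Q 74.2% against 46.4%. Over the other 46 numbers it was 48.4% against 48.8%. The directions given above hold on both scales for the large structural genes in L (median -0.73 and -0.69 on log2 CPM) and for the ribosomal protein genes there (0.25 and 0.26). In P the ribosomal protein genes had a median of 0.03 in Lane 1 and -0.004 in Lane 2 on log2 CPM, so their place on the low side does not hold on that scale. The pluripotency list there went from medians of -0.08 and -0.09 on the TPM scale to 0.03 and 0.02 on log2 CPM.

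Which genes varied together was read from pairs with a correlation of at least 0.7 over the numbers in each lane. Among 2816 called genes with a cross-lane correlation of 0.5 or more there were 4418 such pairs, and 1664 pairs at -0.7 or less in each lane, involving 587 genes. Linked pairs joined 535 genes into 1 group. Most of these pairs rested on P and L: without them there were 694 and 212 pairs, among 237 genes, and ranks in place of values gave 592 positive pairs. The groups described next are those of the 46 numbers, a choice made after the values were seen.

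The largest of these groups held 97 genes and was led by NCL, NASP, EIF3A, PNN, HNRNPA1 and HNRNPA2B1. PNN encodes pinin, a protein of splicing complexes and cell junctions. Other members were HNRNPH3, HNRNPU, NONO and PPM1G (RNA processing), CALR (a chaperone of the endoplasmic reticulum) and PKM2 (pyruvate kinase of glycolysis). The next held 89 genes and was led by DPPA4, SLC38A2, YWHAZ, EIF4EBP2, NUCKS1 and CD24. SLC38A2 is an amino acid transporter, YWHAZ a 14-3-3 adaptor, EIF4EBP2 a repressor of cap-dependent translation and NUCKS1 a nuclear phosphoprotein. ACTB and EEF1A1 belonged to it as well. Within the first group the mean correlation between genes was 0.547 in Lane 1 and 0.591 in Lane 2, and within the second 0.475 and 0.499. Between them it was -0.45 and -0.47, so when the first was high the second was low.

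Libraries that had no part in forming the groups were read next. In the other 47 Lane 1 libraries the mean correlations were 0.617 within the first group, 0.560 within the second and -0.56 between them. In the 24 numbers of Lane 3, which belong to the 48, they were 0.765, 0.694 and -0.71. These 24 include P, which lay at the far end of both groups and was left out when the groups were formed. The Lane 3 values are therefore not like for like with those of Lanes 1 and 2. All 694 positive and 212 negative pairs had the same sign in the other 47 libraries, with a median correlation of 0.783 for the positive and -0.73 for the negative pairs, where the median of all 2267385 pairs of the 2130 genes was 0.0371. These are descriptions of libraries that share the line, the protocol and, for the 47, the lane.

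Over the numbers the mean deviation of the first group ran from -0.33 in L through -0.22 in Lane1_38833_0051 and -0.18 in Lane1_38840_0058 to 0.31 in Q and 0.52 in P in Lane 1, and from -0.31 to 0.52 in Lane 2. The second group ran from -0.41 in P to 0.17 in Lane1_38840_0058. EIF3A, for example, ranged from 689 to 1605 TPM in Lane 1 (median 937) and from 693 to 1613 TPM in Lane 2. SLC38A2 ranged from 388 to 551 TPM in Lane 1 and from 377 to 559 TPM in Lane 2. The groups crossed functional lists. Of all 8290 genes 1.17% were in the first group and 1.07% in the second, and 14 of 28 lists had no member in either. At these shares few members fall in a list by size alone. Only 2130 genes, called and with a cross-lane correlation of 0.5 or more, could join a group. The 76 mitochondrial ribosomal protein and 76 respiratory chain genes had none in either. Their median cross-lane correlations were 0.367 and 0.394, so their absence says nothing of their function. Of 31 SR and hnRNP genes 9 were in the first group and 2, SRSF1 and SRSF2, in the second. Of 24 actin cytoskeleton genes TPM2, TPM4, MYH9 and MYH10 were in the first and ACTB, ACTG1 and PFN1 in the second. Of 23 pluripotency genes L1TD1 was in the first and DPPA4, DNMT3B, PODXL, CDH1 and NANOG were in the second.

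The groups differed in the base composition of their transcripts, which had no part in choosing them. The purine share of the transcript had a median of 55.5% in the first group and 49.2% in the second, against 50.9% over 8269 genes matched to a GENCODE transcript. In the first group 94 of 97 genes lay above the median of all genes, and in the second 11 of 88. Within the coding sequence, the richest stretch of 75 bases had a median purine share of 81.3% in the first group, 68% in the second and 70.7% over all genes. GC content differed little, with medians of 45.96% and 44.6% against 47.7%. Purine content was examined after the values were seen, so these counts carry no test.

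To show the difference in composition, the coding stretch richest in purines within 1 exon is printed for 4 leading genes of each. Each is 75 bases of the mRNA strand, 5′ to 3′, GENCODE 29 on GRCh38, with the longest run of purines in capitals. The first 4 are from the first group and hold 62 to 65 purines, and the last 4 are from the second group and hold 46 to 57.
NCL, exon 3 of 14, chr2:231461658-231461732, minus strand: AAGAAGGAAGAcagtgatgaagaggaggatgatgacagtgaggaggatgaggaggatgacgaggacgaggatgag
NASP, exon 6 of 15, chr1:45607663-45607737, plus strand: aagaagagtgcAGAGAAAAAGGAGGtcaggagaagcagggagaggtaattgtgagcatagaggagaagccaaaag
EIF3A, exon 17 of 22, chr10:119049832-119049906, minus strand: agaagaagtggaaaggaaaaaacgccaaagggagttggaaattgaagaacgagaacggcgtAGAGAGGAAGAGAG
PNN, exon 9 of 9, chr14:39180756-39180830, plus strand: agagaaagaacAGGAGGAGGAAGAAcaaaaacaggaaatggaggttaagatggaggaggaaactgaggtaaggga
DPPA4, exon 5 of 7, chr3:109330724-109330798, minus strand: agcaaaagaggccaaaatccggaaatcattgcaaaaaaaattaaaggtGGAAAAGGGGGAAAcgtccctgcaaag
SLC38A2, exon 3 of 16, chr12:46370779-46370853, minus strand: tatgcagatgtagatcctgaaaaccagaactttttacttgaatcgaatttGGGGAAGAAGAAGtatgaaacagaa
EIF4EBP2, exon 2 of 3, chr10:70420021-70420095, plus strand: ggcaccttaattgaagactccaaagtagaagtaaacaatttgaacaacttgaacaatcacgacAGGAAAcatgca
NUCKS1, exon 5 of 7, chr1:205720517-205720591, minus strand: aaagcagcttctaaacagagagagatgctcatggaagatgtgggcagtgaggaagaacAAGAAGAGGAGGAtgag
The stretch of EIF4EBP2 has no run of purines longer than 6 bases. The stretch of NUCKS1 is 76% purine, while its whole transcript has 49.9%, below the median of all genes. The groups overlap in this measure. YWHAZ, the third of the second group by links, is not printed and has 77.3% in its richest stretch, above HNRNPA1 (70.7%) and HNRNPA2B1 (73.3%) of the first group.

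The purine slope of a number, the change in its deviations per 10 percentage points of transcript purine content, with GC content and length in the same regression over genes, repeated between lanes. It was 0.60 in Lane 1 and 0.58 in Lane 2 in P, 0.33 and 0.35 in Q, -0.24 in both lanes in Lane1_38852_0070 and -0.22 and -0.23 in L. Over the 48 numbers the lanes had a Pearson r of 0.994 and a Spearman rho of 0.993 (r = 0.991 without P and L), and their slopes differed by at most 0.037. The other 47 Lane 1 libraries spread from -0.35 to 0.31, a range that takes in every one of the 48 numbers in Lane 1 but P and Q. In P the median deviation rose from -0.30 in the 1654 genes poorest in purines (37.5 to 48.9%) to 0.12 in the 1654 richest (53.06 to 64.8%) in Lane 1. The Lane 2 medians were -0.29 and 0.10. These correlations were computed on a feature chosen after the values were seen and are given without p.

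**Figure D4:**
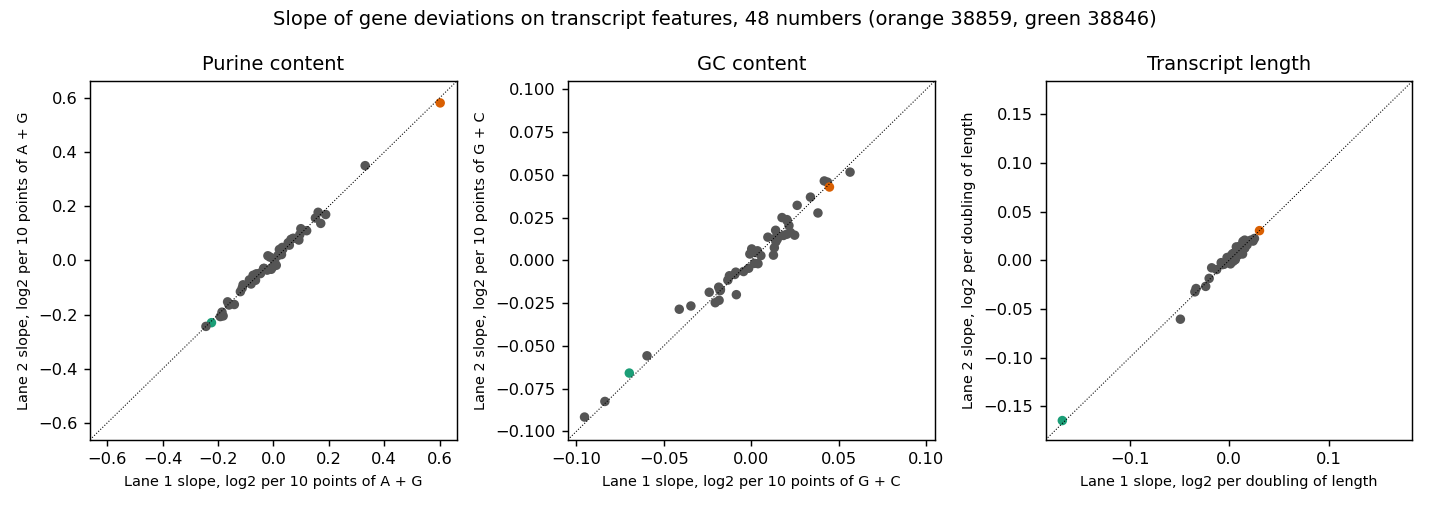
Slope of the deviations of each of 48 numbers on purine content, GC content and log2 length of transcripts, Lane 1 (x axis) against Lane 2 (y axis), with P in orange and L in green. Points lie along the diagonal in all panels, with P at the top for purine content and L at the bottom for length.

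Slopes on GC content and length also repeated. The GC slope ran from -0.10 per 10 percentage points in Lane1_38845_0063 to 0.06 in Q in Lane 1 and from -0.09 to 0.05 in Lane 2 in the same numbers, with r = 0.987 and rho = 0.976 between lanes. In Lane1_38845_0063 the median deviation fell from 0.12 in the 1654 genes lowest in GC to -0.10 in the 1654 highest in Lane 1, and from 0.12 to -0.09 in Lane 2. The length slope was -0.17 per doubling in Lane 1 and -0.16 in Lane 2 in L, and between -0.05 in Lane1_38829_0047 and 0.03 in P in the others in Lane 1. Without P and L the lanes still had r = 0.967. Number L also had a low GC slope (-0.07 in both lanes) and P a raised one (0.04). The part that each feature plays in a gene's deviation was not tested.

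**Figure D5:**
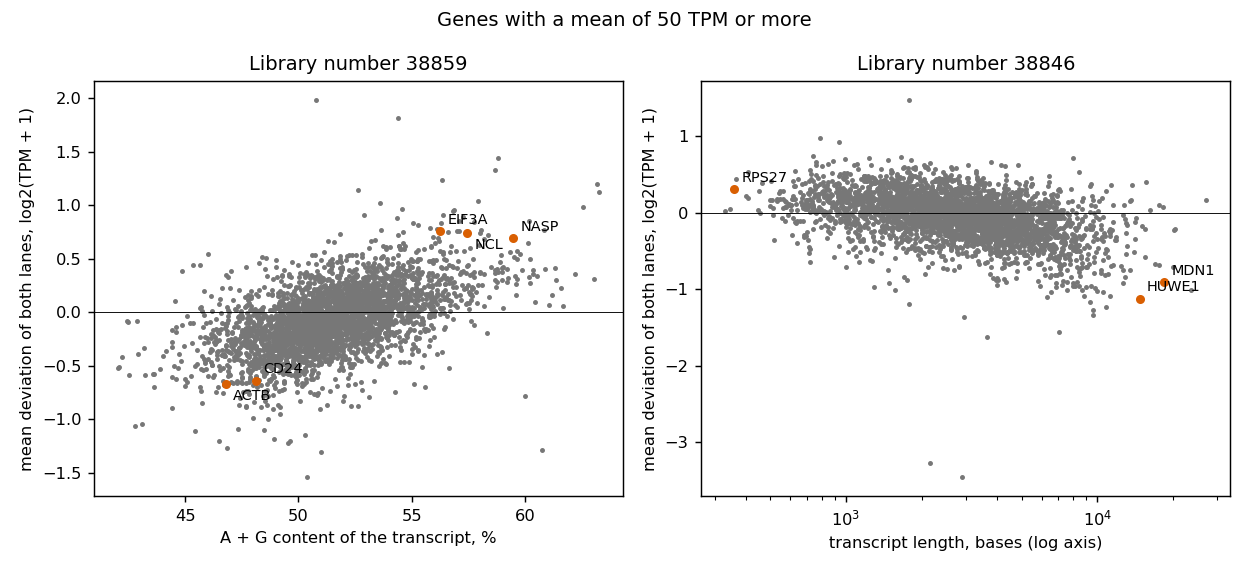
Mean deviation of both lanes (y axis, log2(TPM + 1)) for genes of 50 TPM or more, against transcript purine content in number P (left) and transcript length on a log axis in number L (right), with named genes in orange. NASP, NCL and EIF3A lie high and ACTB and CD24 low in P, and HUWE1 and MDN1 lie low in L.

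Principal axes of the Lane 1 libraries, with Lane 2 libraries projected on the same loadings, were computed as well. The first axis took 6.5% of the Lane 1 variance over genes, and the positions of the 48 numbers on it correlated between lanes with r = 0.989 and rho = 0.972 (permutation p = 1e-05 for both, the smallest possible; adjusted p = 9.6e-05 and 0.00024 over 96 relations by the same permutations). Without its 2 farthest numbers, P and Q, r was 0.974. Computed again without P and L it took 5.01% and r was 0.908. A gene's correlation with the first axis followed its purine content, with a correlation over 8269 genes of -0.53 (the sign of an axis is arbitrary, and P lay at its low end). The second axis had r = 0.921 and rho = 0.658 (permutation p = 1e-05 for both), but r = 0.719 without Lane1_38829_0047 and L, and went with transcript length (0.546 over genes). Computed without P and L, it had a correlation over genes of 0.429 with GC content and -0.38 with length. The third repeated less, with r = 0.417 and rho = 0.438 (permutation p = 0.0032 and 0.0020; adjusted p = 0.0127 and 0.0130 by the same permutations).

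The first axis was compared with list scores, the mean deviation of a list's genes in Lane 2 on the TPM scale. The Lane 1 values of these genes also took part in computing the axis. Of 28 lists, 10 passed with both r and rho, 8 of them positive and 2 negative, so an association with this axis was common among lists. The cholesterol synthesis score correlated with it at r = 0.690 and rho = 0.637 (permutation p = 1e-05 for both; adjusted p = 9.6e-05 and 0.00024 by permutation), and at 0.595 without P and Q. The pluripotency score had r = 0.626 and rho = 0.522 (adjusted p = 9.6e-05 and 0.0017 by permutation; 0.457 without the 2 numbers), and the SR and hnRNP score r = -0.68 and rho = -0.53 (adjusted p = 9.6e-05 and 0.0017 by permutation; -0.44 without them). On the TPM scale most genes lay low in P and Q, with medians of -0.10 and -0.07 in Lane 1. On log2 CPM the pluripotency list in P had medians of 0.03 in Lane 1 and 0.02 in Lane 2. The cholesterol list there stayed low (-0.08 and -0.04) and the SR and hnRNP list high (0.22 and 0.23). Whether the relations to the axis hold for scores on log2 CPM was not tested. The axis and total count had r = 0.158 and rho = 0.276, which did not pass (permutation p = 0.285 and 0.057; adjusted p = 0.428 and 0.128 by permutation). With the number of genes detected r was 0.397 and rho 0.412 (adjusted p = 0.034 and 0.022 by permutation), but r was 0.17 without P and Q.

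A further group held 5 genes, the same with and without P and L. It consisted of EIF3B (a subunit of eIF3), TXNDC5 (a disulfide isomerase of the endoplasmic reticulum), RNF187 (a ubiquitin ligase), SAP30 (a subunit of a histone deacetylase complex) and SPATS2L. Their mean correlation was 0.684 in Lane 1, 0.696 in Lane 2, 0.587 in the other 47 Lane 1 libraries and 0.581 in Lane 3. TXNDC5 ranged from 106.8 to 215.1 TPM in Lane 1 (median 172.2) and from 102.2 to 213.0 TPM in Lane 2 (median 173.5), and its repeatable SD of 0.26 was the same without the 2 numbers. SAP30 ranged from 17.4 to 84.7 TPM in Lane 1 and from 20.3 to 72.5 TPM in Lane 2. The group's mean deviation was lowest in Lane1_38832_0050 in Lane 1 (-0.50, against -0.26 in Lane 2) and in Lane1_38836_0054 in Lane 2 (-0.50, against -0.42 in Lane 1). It was highest in Lane1_38854_0072 in Lane 1 (0.38, against 0.31 in Lane 2) and in Lane1_38858_0076 in Lane 2 (0.38, against 0.32 in Lane 1). The group's mean deviation was negative in both lanes in every number from Lane1_38829_0047 to Lane1_38845_0063. In most of the later numbers it was not. The cause of this order was not tested. The purine and GC medians of the 5 genes, 50.4% and 51.8%, lay near those of all genes.

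Gene lists were described by their called members. Of 32 lists, 30 had a member with a mean of 10 TPM or more. Shares here count genes that were not tested as not called, which gives 92.2% over all 8290 genes. Called shares stayed near that background in nearly all lists. All 82 ribosomal protein genes, all 31 SR and hnRNP genes and 22 of 23 pluripotency genes were called, and 6 of 9 p53 targets. The remaining pluripotency gene was not tested. The 6 replication-dependent histones above 10 TPM, whose transcripts mostly lack poly(A) tails, lay below the count filter and were not tested. The cross-lane correlation differed more. Its median was 0.853 in the large structural list, 0.814 in the actin list, 0.805 in the SR and hnRNP list and 0.735 in the pluripotency list, against 0.423 over all genes. It was 0.315 in the hypoxia list, 0.345 in the immediate early list and 0.367 in the mitochondrial ribosomal list. Lists with high values had median levels of 60 to 679 TPM and those with low values 23.4 to 71.9 TPM, against 37.7 TPM over all genes.

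The most variable called members of several lists were less abundant genes. LEFTY1, a secreted inhibitor of NODAL signalling, ranged from 0 to 22.9 TPM in Lane 1 with a repeatable SD of 0.38, and KRT7, a keratin of simple epithelia, from 3.66 to 25.6 TPM with 0.34. The metallothionein gene MT1E ranged from 9.81 to 80.7 TPM there with a repeatable SD of 0.39. RPS27 and RPS29, ribosomal protein genes, ranged from 122.3 to 360.6 TPM and from 31.2 to 184 TPM in Lane 1, each with a repeatable SD of 0.28. The respiratory chain gene NDUFB1 ranged from 10.8 to 108.8 TPM there with 0.41 and was lowest in P in Lane 1. In these genes a repeatable SD of 0.28 to 0.41 came with cross-lane correlations of 0.335 to 0.637, so much of their spread in a lane did not repeat.

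Lane means differed little. Of 10120 genes, 0 (0.0%) differed between Lane 2 and Lane 1 in edgeR's test without a block, with 182 genes at an unadjusted p below 0.05, and 0 in DESeq2. With the library number as a block 26 did (0.257%), 2 higher and 24 lower in Lane 2, and the median size of the lane difference over all genes tested was 0.03 on the log2 scale.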

How the data were processed

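Expected counts and TPM per gene were deposited by the authors, who, per the submitters' processing notes, used CASAVA 1.8.2, Bowtie 0.12.8 and RSEM 1.2.3 with hg19. Whether strand was used in counting is not stated there. TPM are scaled to a fixed total per library. The members and lists were chosen with earlier results of these data known.

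Expected counts were rounded and fitted with edgeR 4.0.16 (TMM factors, quasi-likelihood, terms for lane and number, filter on low counts, R 4.3.3), with Benjamini-Hochberg adjustment over all genes, or over genes and numbers. The fit was tested on simulated data. DESeq2 1.42.0 and limma 3.58.1 were alternatives. Levels and deviations used log2(TPM + 1) in Python 3.11.15. Totals of 1040667 to 2739067 counts per library limit precision at low levels.

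Same-numbered libraries of Lanes 1 and 2 deviated together: their deviations correlated at 0.155 to 0.666 in the 48 pairs, against -0.245 to 0.31 for different numbers. Numbers were paired on that ground and on the shared number in the labels. After lane and number the common biological coefficient of variation was 0.0099, near counting noise.

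Pairs of genes were linked at a correlation of 0.7 or more in both lanes, and linked genes were followed into groups. Of 8290 genes, 8269 were matched to a GENCODE transcript, 8138 by RefSeq accession and 131 by symbol. These transcripts, on GRCh38, may differ from the authors' models. Named genes were the 12 called genes of largest repeatable SD, the 8 of widest spread with a correlation below 0.2, the 4 largest deviations each way in the 5 numbers with most calls, the 6 best-connected genes of each group, the 3 most variable called members of each list, POU5F1, NANOG and SOX2, and the 5 genes at each end of the first axis. Of these, those with values most useful to the account are printed. Others were named after their values were seen, as were purine content, sums of copies and the results without P and L.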

Additional observations from a re-analysis of the deposited data

How the results depend on the processing

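Of 46 alternatives, 30 left the result on the same side and within 1.5 times (or 1 SD) of its value, 16 moved it and 0 reversed it. The 7646 genes that differed between numbers became 5953 with DESeq2 and 5833 with libraries thinned to the lowest total. Requiring a repeatable SD of 0.2 as well left 1259 of the 7646. The 3268 called deviations became 1899 with DESeq2, 1664 with libraries thinned to the lowest total, 267 at a size of 1 or more on the log2 scale and 2077 without P and L. The repeated share of 26.9% was 32.2% from a size of 0.5, 65.7% in genes of 100 TPM or more, 46.97% chosen in Lane 2, 20.9% read in Lane 3 and 23.4% without P and L. The 4418 positive gene pairs were 69541 at a correlation of 0.5, 6792 on log2 CPM, 592 by Spearman's rho and 694 without P and L. Where a cut on SD, size, level or correlation was changed, the count or share changed with the cut. For the other settings, some of which use fewer libraries or counts, the cause of the shift was not tested.

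The lane comparison gave 0 genes without a block, 1 without a filter on low counts and 26 with the library number as a replicate block. The block changed no other result, since number is already a term in the other fits. Whether 1 number is 1 library sequenced again is not given in the labels, so the tests do not cover the spread between cultures. Read division limits what can be said of near-identical genes at any level, and a depth of 1040667 to 1419596 counts in Lane 1 limits what can be said of genes of low level.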
